A study of Homo sapiens with 4 samples.

Results

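The 9 genes that carry a cell from the start of its cycle to division described here are CCND1, CDK6, E2F1, E2F2, CCNE2, RRM2, CDK1, TOP2A and NUSAP1. They were taken by name from 4 deposited tables. All 9 were among the 1977 listed genes. They had 13 of the 7251 listed isoforms and 18 of the 2672 listed introns, and a merged locus that includes CCNE2 had 6 of the 474 listed exons. The study used HepG2, an established human hepatocarcinoma line, and compared cells given an siRNA against METTL3 (METTL3_KD, 2 libraries) with cells given a scrambled control, which the sample names call mock (Mock_control, 2 libraries). Both groups were transfected with Oligofectamine, transfected again at 48 and 96 hours and collected on day 7, and poly(A) RNA was sequenced. Silencing was by siRNA, and METTL3 RNA was lowered and not absent. The series calls the 2 libraries of a group biological replicates and does not say how the cultures were kept apart. The exon p-values computed here therefore measure the spread between these libraries, which may be technical. The authors' deposited p-values rest on the same libraries, and what spread they measure is not known here. METTL3, the catalytic subunit of the complex that writes N6-methyladenosine into messenger RNA, went from 955 to 241 mean normalized counts per the authors' deposited table, a 3.96-fold fall. Only the exon table gives a value for each library; the other tables give 1 value per group. All 4 tables list only features past 2-fold by the authors' own fold change at an adjusted p under 0.05 (by the library values, 81 of the 474 exons had group means under 2-fold apart), so the 9 genes are listed because they changed, and a feature outside the tables has no value here. None of the 18 hepatocyte markers looked up was in the gene table, so the cell label could not be checked against their levels, and the total depth of the libraries is unknown. Of 6 fibroblast markers, COL3A1, DCN and LUM were listed, all lower, with a summed level of 11211 normalized counts in the control and 2616 in the knockdown per the authors' deposited table. CD14, CDH5 and SYP, each 1 of 4 blood, endothelial and neural markers, were listed as higher, and the part of any of these in the results below was not tested.

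The cell cycle is driven by kinases that work only when bound to a cyclin. In G1, cyclin D1 (CCND1) with CDK4 or CDK6 starts to phosphorylate the retinoblastoma protein, which frees E2F transcription factors such as E2F1 and E2F2. These switch on the genes of DNA synthesis, among them CCNE2, a cyclin that partners CDK2 at the G1/S boundary, and RRM2, the small subunit of ribonucleotide reductase, which makes deoxynucleotides. CDK1 with cyclins A and B then drives entry into mitosis, TOP2A untangles and condenses the chromosomes, and NUSAP1 bundles microtubules of the spindle.

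The 9 genes split by their place in this order. The 2 that act first in G1, CCND1 and CDK6, were higher after METTL3 silencing, and the 7 that act from E2F onward were lower per the authors' deposited table. Of all listed genes, 41.3% were higher and 58.7% lower. Since the genes were chosen with their values known, the split is a description and no test of it was made. The median listed gene had a log2 fold change of -1.10. Genes that changed little are not listed, so this median does not mark the level of no change. Measured from that median, CCNE2 was the only one of the 7 still past 2-fold lower (-1.74). E2F1 and CDK1 turned to 0.07 and 0.0037, and the other 4 lay between -0.38 and -0.11. Any listed higher gene must lie above 2 on that scale, so the values of CCND1 (2.29) and CDK6 (2.14) there are no sign of a firmer change. In a bulk library, fewer cells in S phase or mitosis and less of a transcript per cell cannot be told apart.

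**Figure D1:**
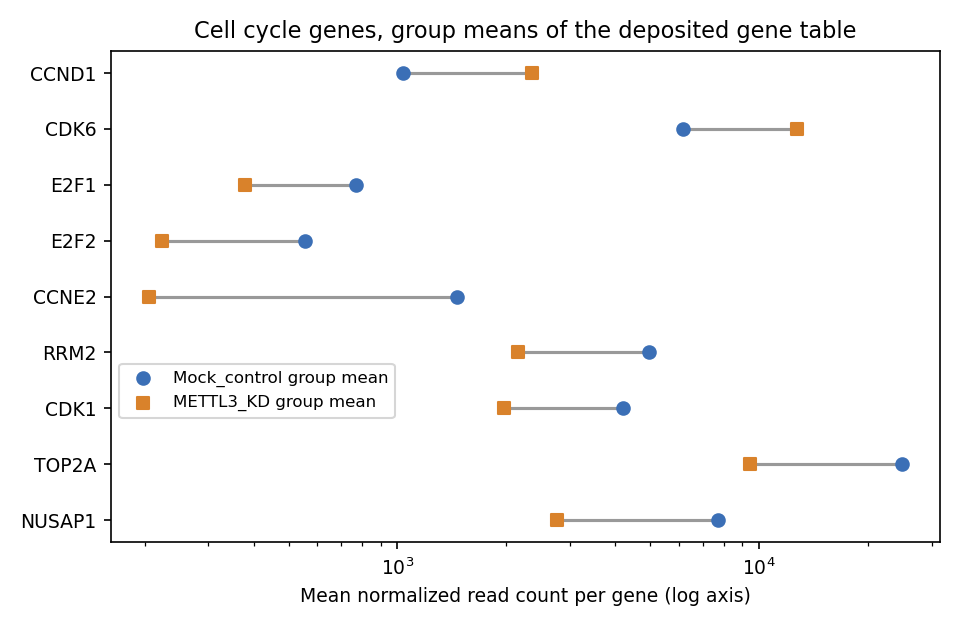
Mean normalized read count of each of the 9 genes (log axis, horizontal) in the control group (circles) and the METTL3 knockdown group (squares), from the authors' deposited gene table, which gives no spread. Knockdown means lie to the right of the control for CCND1 and CDK6 and to the left for the other 7 genes, with the widest gap for CCNE2.

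CCND1, the growth factor-responsive G1 cyclin, rose from a mean of 1035 to 2363 normalized counts, 2.28-fold (log2 fold change 1.19, adjusted p = 2.31e-30 per the authors' deposited table). Its kinase partner CDK6 rose from 6171 to 12748 normalized counts, 2.07-fold (log2 fold change 1.05, adjusted p = 4.76e-63 per the authors' deposited table). Both sat close to the 2-fold limit of the table: by size of rise they ranked 574 and 746 among the 816 higher genes. Each had 1 listed isoform, which moved with its gene. The CCND1 isoform went from 13.5 to 31.1 FPKM and the CDK6 isoform from 27.0 to 54.1 FPKM per the authors' deposited table (FPKM, a fragment count scaled by transcript length and library size). With 1 FPKM added to both values the CDK6 isoform was just under 2-fold (log2 fold change 0.98). Neither gene had a listed intron or exon.

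E2F1 and E2F2, activating members of the E2F family, were both lower. E2F1 fell from 769 to 378 normalized counts, 2.03-fold (log2 fold change -1.02, adjusted p = 3.04e-15 per the authors' deposited table). E2F2 fell from 556 to 223 normalized counts, 2.50-fold (log2 fold change -1.32, adjusted p = 9.25e-17 per the authors' deposited table). E2F1 lay just inside the 2-fold limit, at rank 1121 of 1161 lower genes. Per length, E2F1 was the more abundant: its isoform went from 17.3 to 7.52 FPKM and that of E2F2 from 5.89 to 2.17 FPKM per the authors' deposited table.

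CCNE2, the cyclin that E2F factors induce at the G1/S boundary, had the largest change of the 9. Its mean went from 1465 to 205.0 normalized counts, a 7.14-fold fall (log2 fold change -2.84, adjusted p = 7.5e-150 per the authors' deposited table). It ranked 90 among the 1161 lower genes by size of fall, whereas the next of the 9, NUSAP1, ranked 515. Both listed CCNE2 isoforms fell, ENST00000308108 from 27.1 to 3.52 FPKM and ENST00000396133 from 15.9 to 1.71 FPKM per the authors' deposited table. The shorter open reading frame belongs to ENST00000396133, with 1122 coding bases against 1212 in GENCODE 29, and its share of the listed CCNE2 FPKM was 37.0% before silencing and 32.7% after it.

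CCNE2 was the only one of the 9 genes in a locus with listed exons, and these are the only values given for each library. The authors merged CCNE2 with its neighbour INTS8, a subunit of the Integrator complex, and 6 exons of the INTS8+CCNE2 locus were listed; the table does not say which gene an exon belongs to. INTS8 itself was in neither the gene table nor the isoform table, and 1 of its introns, intron 18, was listed, from 92.3 to 34.9 normalized counts per the authors' deposited table. Exon 30, the highest of the 6, had 673 normalized counts in control library 1, 834 in control library 2, 128 in knockdown library 1 and 106 in knockdown library 2. Both knockdown values were far below both control values. On log2(value + 1) it fell by 2.67 ± 0.20 (SE; limma adjusted p = 0.000894), with group means of 753 ± 114 and 117 ± 16.0 normalized counts (SD, n = 2 each).

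The other 5 exons had lower values and also fell. Exon 33 had the largest difference, at 103 and 84.3 normalized counts without silencing and 13.9 and 7.42 with it (limma log2 fold change -3.07 ± 0.33, SE, adjusted p = 0.00168). Exon 31 had the smallest, at 107 and 117 normalized counts without silencing and 17.4 and 26.0 with it (limma log2 fold change -2.34 ± 0.24, SE, adjusted p = 0.00154). Their 95% intervals, -3.97 to -2.17 and -3.00 to -1.68, overlapped. Exon 35 had the smallest error, at 103 and 95.8 normalized counts against 16.5 and 16.7 (limma log2 fold change -2.51 ± 0.15, SE, adjusted p = 0.000564). Exons 36 and 37 had limma log2 fold changes of -2.79 and -2.58. Outside exon 30, no control value was below 84.2 and no knockdown value above 26.0 normalized counts.

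All 6 exons had both knockdown libraries below both control libraries, as did 67.3% of the listed exons (98.9% had no overlap in either direction), and all 6 passed the limma test, as did 96.2% of the listed exons (65.6% of them as lower). The exon table was itself selected for change in these libraries, so neither count is an independent sign that CCNE2 fell. For 2 against 2 libraries, an exact two-sided permutation test per exon gives at the least p = 0.333. The authors' own exon log2 fold changes were -1.57 for exon 30 and -2.02 for exon 33 per the authors' deposited table. All 6 were smaller in size than those computed from the library values, and they are not ratios of the group means. Elsewhere the gap went the other way, as for SGO1 exon 4, at -1.07 per the authors' deposited table and -0.88 by limma. What the authors' exon value measures is not stated, so a listed exon need not have changed 2-fold in counts. The profile nearest to exon 30 over the 4 libraries, by Euclidean distance of centred log2(value + 1), was exon 18 of MATR3, at a distance of 0.21.

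**Figure D2:**
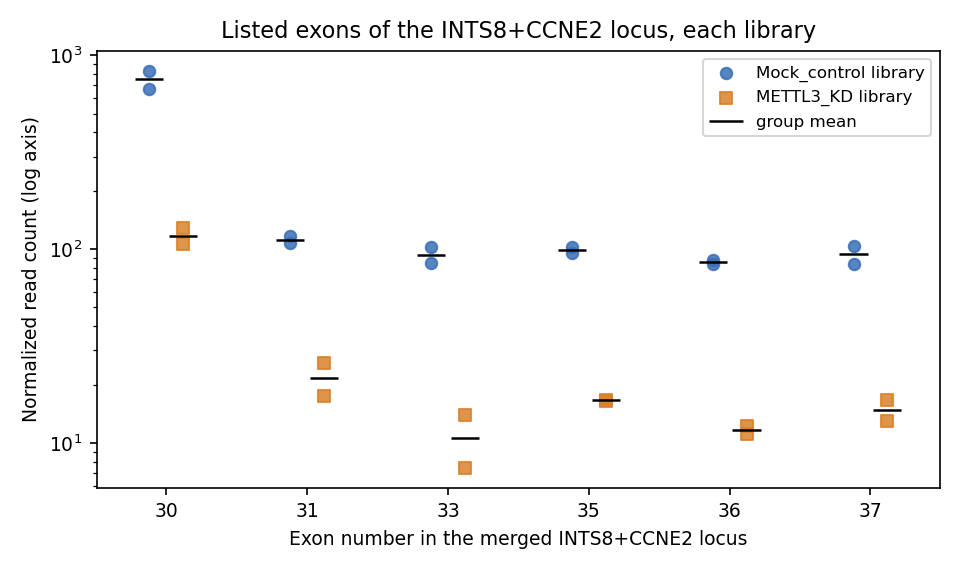
Normalized read count (log axis) of the 6 listed exons of the merged INTS8+CCNE2 locus in each control library (circles) and each knockdown library (squares), with black bars at the group means. At every exon the 2 groups are separate, and exon 30 lies highest in both.

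RRM2, which supplies deoxynucleotides for S phase, fell from 4961 to 2153 normalized counts, 2.30-fold (log2 fold change -1.20, adjusted p = 1.87e-77 per the authors' deposited table). The listed isoform fell with it, from 82.6 to 32.9 FPKM per the authors' deposited table. Its paralogue RRM2B, the p53-inducible subunit of the same enzyme, moved the other way, from 996 to 2317 normalized counts (log2 fold change 1.22, adjusted p = 1.36e-41 per the authors' deposited table).

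All 3 mitotic genes were lower. TOP2A fell from 24867 to 9456 normalized counts, 2.63-fold (log2 fold change -1.39, adjusted p = 1.21e-157 per the authors' deposited table). NUSAP1 fell from 7697 to 2759, 2.79-fold (log2 fold change -1.48, adjusted p = 1.01e-108 per the authors' deposited table). CDK1 fell from 4207 to 1971, 2.13-fold (log2 fold change -1.09, adjusted p = 9.77e-38 per the authors' deposited table). The 2 listed TOP2A isoforms fell together, ENST00000348049 from 196 to 72.9 FPKM and ENST00000357601 from 66.3 to 23.8 FPKM per the authors' deposited table. ENST00000348049 made up 74.7% of the summed TOP2A FPKM before silencing and 75.4% after it. The NUSAP1 isoform fell from 208 to 70.8 FPKM per the authors' deposited table.

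CDK1 is listed in the isoform table under its older name CDC2, with 3 isoforms that did not all move one way. The 2 major ones fell, ENST00000395284 from 104 to 40.4 FPKM and ENST00000307250 from 77.5 to 33.0 FPKM per the authors' deposited table. The minor isoform ENST00000373809 rose from 1.32 to 4.15 FPKM (log2 fold change 1.65, adjusted p = 6e-06 per the authors' deposited table). Its share of the summed CDK1 FPKM went from 0.724% to 5.35%, so it stayed a small part of the total. With a mean of 2.74 FPKM it was the 1 of 3 higher isoforms lost at a minimum mean of 5 FPKM. It was the only isoform of the 7 lower genes to rise, 1 of 11, beside 6.75% of the isoforms of all lower genes. In GENCODE 29 (GRCh38), ENST00000373809 lacks an internal coding exon that ENST00000395284 has, at chr10:60788060-60788230 on the plus strand. That exon has 171 bases, a whole number of codons (57), so the reading frame continues without it, and the coding length is 720 bases instead of 891. Near its start, at chr10:60780153-60780202, the short isoform has 1 exon whose coordinates are its own. Its model has 6 exons, all coding, and that of ENST00000395284 has 8, of which 7 are coding. As the counts of coding exons and the coding lengths both differ by just the skipped exon, this is not an added coding exon. It may be a shared coding exon with another boundary. The skipped exon is shown because it distinguishes the isoform that rose from a major one that fell, and below it is the junction of the short isoform, 12 bases on each side, with the bases after the skipped exon in capitals.
CDK1 skipped exon: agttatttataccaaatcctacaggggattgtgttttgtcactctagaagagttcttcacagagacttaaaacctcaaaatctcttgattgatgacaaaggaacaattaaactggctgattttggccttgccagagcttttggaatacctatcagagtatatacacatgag
CDK1 short isoform junction: tcacttgttaagGTAGTAACACTC
These models come from a later annotation than the authors' hg18 files. ENST00000307250 and both TOP2A isoforms had no match in it.

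Ordered by the summed FPKM of their listed isoforms, the control ran from TOP2A (262 FPKM) through NUSAP1 (208), CDK1 (183), RRM2 (82.6), CCNE2 (42.9), CDK6 (27.0), E2F1 (17.3) and CCND1 (13.5) to E2F2 (5.89) per the authors' deposited table. In the knockdown, CDK6 stood in place 4 with 54.1 FPKM and CCND1 in place 6 with 31.1, while CCNE2 went from place 5 to place 8 with 5.24 FPKM per the authors' deposited table. TOP2A at 96.8 FPKM stayed first and E2F2 at 2.17 FPKM last per the authors' deposited table. No spread is given for these values, so whether neighbours in the order differ was not tested. Over the whole isoform table, 53.3% of isoforms were lower and 46.7% higher; of the 13 listed for these genes, 10 were lower and 3 higher.

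Reads from introns can come from RNA that is not yet spliced, or that keeps the intron, and were counted apart from the genes. Their origin was not tested here. All 7 lower genes had listed introns, 18 in all, and every one of them was lower, in a table where 71.7% of introns were lower. At an adjusted p of 0.01, 11 of the 18 were left. Measured from the median listed intron, 3 were still past 2-fold lower and 4 turned above 0 (E2F1 intron 6, TOP2A intron 4 and NUSAP1 introns 4 and 7). As introns that changed little are not listed, that median does not mark the level of no change. Of the 1161 lower genes, 28.5% had a listed intron, and in 95.8% of those all listed introns were lower. Of the lower genes with a mean count at or above the lowest of the 9 (389 normalized counts), 38.7% had one. The 18 introns had a median log2 fold change of -1.85, against -1.60 over all lower introns.

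Every listed intron of CDK1, RRM2, E2F1 and E2F2 fell by more than its gene. CDK1 intron 4, the highest of the 18 in the control, fell from 512 to 141 normalized counts (log2 fold change -1.86, adjusted p = 1.13e-09 per the authors' deposited table). Intron 5 of CDK1 fell from 166 to 52.8 and intron 7 from 113 to 27.6 normalized counts per the authors' deposited table. All 3 falls, of 3.15-fold to 4.09-fold, exceeded the 2.13-fold fall of the CDK1 gene count. RRM2 introns 5 and 7 fell 3.92-fold and 3.25-fold, against 2.30-fold for the gene, per the authors' deposited table. E2F2 intron 5 fell from 56.7 to 14.3 normalized counts, 3.96-fold against 2.50-fold for the gene, per the authors' deposited table. E2F1 introns 3 and 6 fell 3.59-fold and 2.20-fold per the authors' deposited table, both by more than the 2.03-fold of the gene.

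CCNE2 differed from these 4 genes in direction, though the difference was not tested. Its introns 9, 10 and 12 fell 5.70-fold, 4.62-fold and 6.80-fold per the authors' deposited table, each by less than the 7.14-fold of the gene. These values are thin, with 6.52 to 20.5 normalized counts left in the knockdown. TOP2A and NUSAP1 introns lay on both sides of their genes. TOP2A intron 4 fell 2.56-fold and intron 25 6.09-fold around a gene change of 2.63-fold, and NUSAP1 introns 4, 7 and 8 fell 2.35-fold, 2.53-fold and 4.10-fold around 2.79-fold, per the authors' deposited table. In all, 12 of the 18 introns fell by more than their gene, beside 68.2% of the 645 listed introns of all lower genes, so the count is not particular to these genes. An intron is listed only if it passed 2-fold at an adjusted p under 0.05, so smaller intron changes are out of view, and the difference between intron and gene was not tested; genes and introns were also scaled separately.

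**Figure D3:**
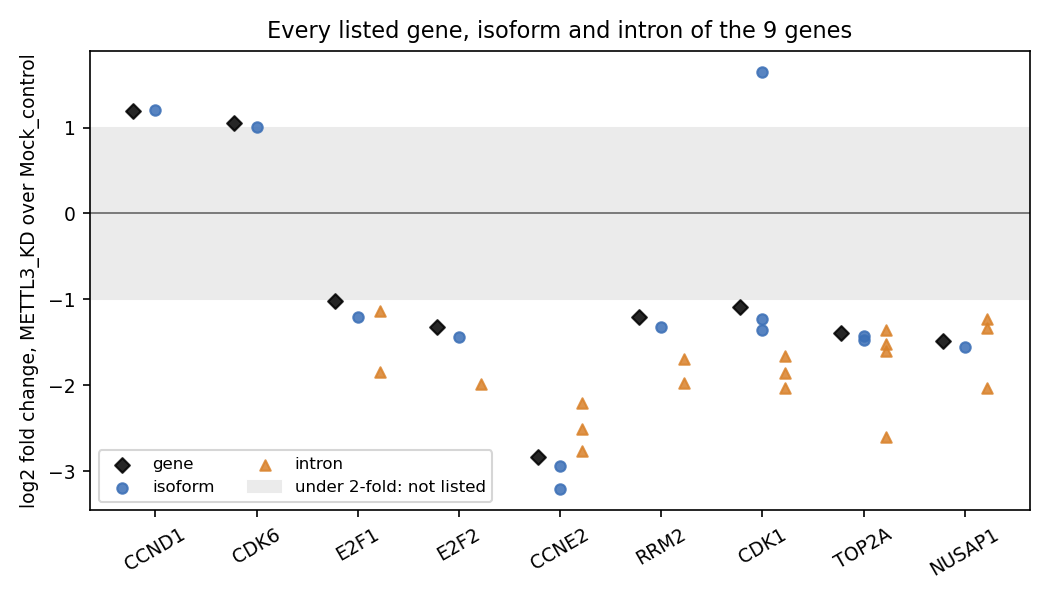
Log2 fold change, METTL3 knockdown over control, of every listed gene (diamonds), isoform (circles) and intron (triangles) of the 9 genes per the authors' deposited tables; features in the grey band changed by under 2-fold and are not listed. All features of CCND1 and CDK6 lie above 0 and those of the other genes below it, except 1 CDK1 isoform at 1.65.

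As several of the lower genes are textbook E2F or mitotic targets, the promoters of the 9 genes were searched for 3 motifs, on both strands, in the 250 bases before a RefSeq start site (GRCh38.p14), 1 start per gene. The motifs were the E2F site (TTTCCCGC, TTTCGCGC, TTTGCCGC or TTTGGCGC), the cell cycle homology region CHR (TTTGAA or TTCGAA), through which the DREAM and MuvB complexes control mitotic genes, and the CCAAT box (CCAAT), bound by NF-Y. Promoters of 7 of the 9 genes were matched, and CCND1 and CCNE2 were not. An E2F site was found in 4 of the 6 lower genes matched, E2F1, E2F2, CDK1 and NUSAP1, and in 2.79% of 35116 promoters. A CHR was found in CDK1 and TOP2A, 2 of 6, and in 14.3% of all promoters, and a CCAAT box in 5 of 6 and in 32.0%. The CDK6 window held none of the 3. As several of these genes are known E2F or mitotic targets, the shares beside those of all promoters are a description and were not tested. A match of letters is not evidence of binding, and none was measured here. RRM2 had neither an E2F site nor a CHR of these letters, and its 1 CCAAT box lies 249 bases before the start. The windows of all 6 lower genes matched follow, with matches in capitals, at chr20:33686386-33686635 (minus) for E2F1, chr1:23531234-23531483 (minus) for E2F2, chr2:10122318-10122567 (plus) for RRM2, chr10:60778228-60778477 (plus) for CDK1, chr17:40417897-40418146 (minus) for TOP2A and chr15:41332631-41332880 (plus) for NUSAP1.
E2F1: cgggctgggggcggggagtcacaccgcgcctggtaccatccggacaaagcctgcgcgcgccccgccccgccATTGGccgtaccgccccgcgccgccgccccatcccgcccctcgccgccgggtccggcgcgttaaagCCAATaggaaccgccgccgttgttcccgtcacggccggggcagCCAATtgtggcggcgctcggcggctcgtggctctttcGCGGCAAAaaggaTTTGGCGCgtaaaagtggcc
E2F2: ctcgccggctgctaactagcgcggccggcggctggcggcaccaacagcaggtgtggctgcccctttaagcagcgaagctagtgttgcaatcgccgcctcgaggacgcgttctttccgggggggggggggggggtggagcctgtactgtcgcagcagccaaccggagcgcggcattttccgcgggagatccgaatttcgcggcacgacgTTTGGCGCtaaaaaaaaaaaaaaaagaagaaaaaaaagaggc
RRM2: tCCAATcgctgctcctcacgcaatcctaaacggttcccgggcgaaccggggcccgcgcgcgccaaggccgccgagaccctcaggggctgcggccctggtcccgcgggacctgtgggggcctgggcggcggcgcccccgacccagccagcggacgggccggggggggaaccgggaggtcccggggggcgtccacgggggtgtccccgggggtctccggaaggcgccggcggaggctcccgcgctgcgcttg
CDK1: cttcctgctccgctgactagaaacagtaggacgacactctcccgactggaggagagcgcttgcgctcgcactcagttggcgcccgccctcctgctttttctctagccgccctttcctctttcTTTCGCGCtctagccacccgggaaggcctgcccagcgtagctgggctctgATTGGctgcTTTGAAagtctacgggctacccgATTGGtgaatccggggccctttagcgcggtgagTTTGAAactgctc
TOP2A: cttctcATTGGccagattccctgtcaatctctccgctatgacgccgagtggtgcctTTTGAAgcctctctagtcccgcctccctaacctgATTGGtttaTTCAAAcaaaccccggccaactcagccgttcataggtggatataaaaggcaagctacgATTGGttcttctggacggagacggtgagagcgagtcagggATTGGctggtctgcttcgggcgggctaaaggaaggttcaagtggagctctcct
NUSAP1: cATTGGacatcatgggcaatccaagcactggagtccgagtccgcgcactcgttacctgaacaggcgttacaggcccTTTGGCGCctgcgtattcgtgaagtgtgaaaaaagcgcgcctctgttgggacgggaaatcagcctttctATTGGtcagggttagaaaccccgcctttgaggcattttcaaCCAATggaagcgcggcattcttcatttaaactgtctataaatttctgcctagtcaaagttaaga
In these windows E2F1 has E2F sites 33 and 20 bases before the start, and E2F2 has one at 42. CDK1 carries all 3 kinds, with CHR letters 69 and 13 bases before its start and CCAAT boxes at 78 and 46. TOP2A holds 4 CCAAT boxes and 2 CHR matches and no E2F site of these letters. NUSAP1 has an E2F site at 174 and CCAAT boxes at 249, 105 and 64.

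The same split was looked for in 154 further cell cycle genes, grouped by role. Of these, 15 were listed as genes, 4 higher and 11 lower, beside 41.3% higher and 58.7% lower over all listed genes. The difference was not tested. The 15 had a median log2 fold change of -1.06 against -1.10 over all listed genes. The higher ones among the 15 were cyclin D3 (CCND3), RRM2B and the CDK inhibitors CDKN1A and CDKN2A. CCND3, which like CCND1 activates CDK4 and CDK6, rose from 1202 to 2891 normalized counts (log2 fold change 1.27, adjusted p = 2.63e-50 per the authors' deposited table). CDKN1A, the p53-induced inhibitor p21, rose from 1624 to 5912, and CDKN2A, which encodes p16 and ARF, from 555 to 1154 normalized counts per the authors' deposited table. No gene of the replication, mitotic entry, checkpoint or spindle groups was listed as higher. Of their listed isoforms, however, 2 of 13, 2 of 7, 4 of 12 and 5 of 24 were higher, in that order, beside 46.7% of all listed isoforms. Both of the replication group were low, CLSPN at 0.580 to 1.33 FPKM and MCM10 at 0.283 to 1.095 FPKM per the authors' deposited table.

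The lower genes act mostly in replication and mitosis. None (0 of 11) was still past 2-fold lower when measured from the median listed gene, which does not mark the level of no change. WEE1, the kinase that holds CDK1 inactive until mitosis, fell from 2677 to 912 normalized counts, 2.94-fold per the authors' deposited table. The licensing factor CDC6, its antagonist geminin (GMNN) and the checkpoint mediator CLSPN fell 2.03-fold, 2.12-fold and 2.00-fold, close to the 2-fold limit, per the authors' deposited table. The kinetochore genes CENPI, KNL1, ZWINT and SPC24 fell 3.08-fold, 2.52-fold, 2.45-fold and 2.36-fold per the authors' deposited table. ASPM, a spindle pole protein, fell from 19036 to 9478 normalized counts, the cohesin subunit STAG1 from 3000 to 1440, and the E2F repressor E2F8 from 212 to 88.0 per the authors' deposited table.

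Introns of these further genes were lower more widely. Of 48 listed introns in 35 of the genes, 47 were lower, in a table where 71.7% were lower, with a median log2 fold change of -1.44. The exception was CDKN1A intron 1, which went from 18.9 to 95.4 normalized counts per the authors' deposited table. Of the 35 genes, 26 were not in the gene table. As that table leaves out changes under 2-fold, these 26 genes may also have fallen by less. No share over all genes with a listed intron is given beside this count. Intron 21 of ANLN, which encodes the cytokinesis protein anillin, fell from 737 to 211 normalized counts, CDC6 intron 8 from 283 to 42.1, and intron 4 of the dUTPase gene DUT from 734 to 244 per the authors' deposited table.

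**Figure D4:**
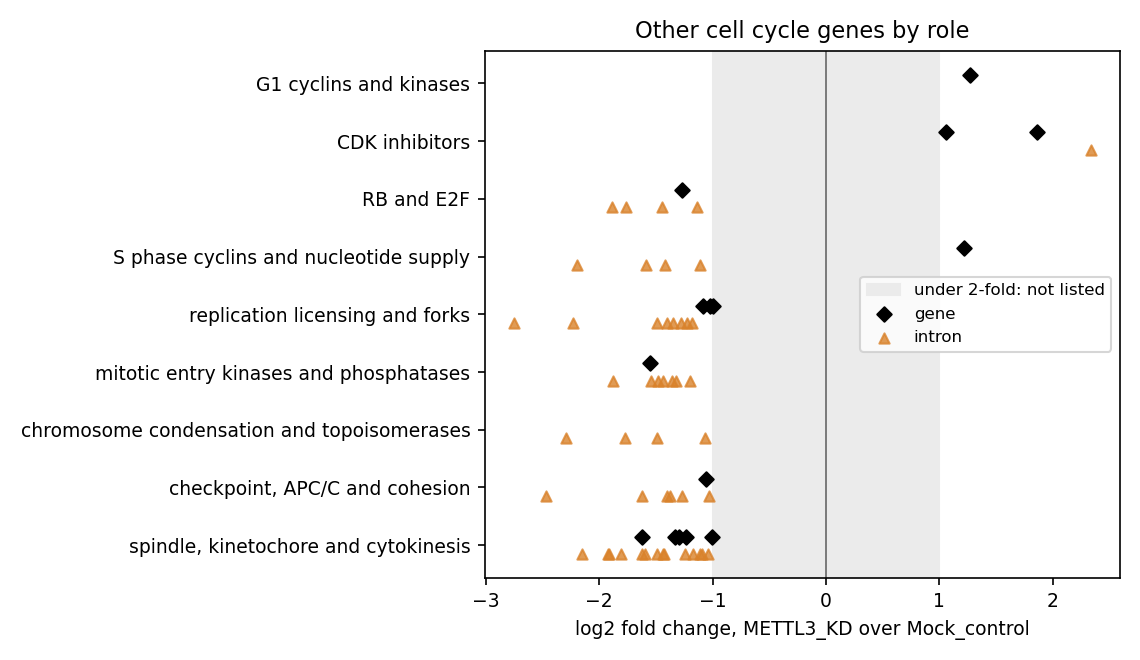
Log2 fold change, METTL3 knockdown over control, of the listed genes (diamonds) and introns (triangles) among 154 other cell cycle genes, by role (vertical), from the authors' deposited tables; the grey band holds changes under 2-fold, which are not listed. Higher genes appear in the G1 cyclin, CDK inhibitor and nucleotide supply groups, and introns lie below 0 except that of CDKN1A.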

How the data were processed

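Poly(A) RNA of 4 HepG2 libraries was measured. Tools named in the submitters' processing notes are TopHat 1.2.0 and CASAVA 1.8, Cufflinks with Cuffdiff 1.0.3, and HTSeq with DESeq 1.5.24, on build hg18; the tool behind each table is not stated in these notes. For genes and introns the authors deposited a normalized signal per group, the mean count after scaling, per the file headers. The fold ratio and log2 value deposited beside it set knockdown over control. For isoforms the authors deposited 1 FPKM per group, from which log2 fold changes were computed. For exons they deposited a normalized count signal per library. All p-values outside limma are the authors' deposited ones.

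For exons, limma 3.58.1 (R 4.3.3) was run on log2(value + 1) over all 474 listed exons, Benjamini-Hochberg adjusted, threshold 0.05, after a check on simulated data. The scale understates changes of low exons. Other tables were described as deposited, with no new test.

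Gene IDs were matched to symbols for 1795 of 1977 genes. Isoforms were matched by label, then by transcript in GENCODE 29, which assigned CDC2 to CDK1; an isoform labelled C2orf48 was not counted as RRM2. Library totals are unknown. Every listed feature of the 9 genes was considered. A fixed rule set which further cell cycle genes could be named. It took all in the gene table and up to 3 genes per role and direction by mean isoform FPKM. It also took up to 3 exons and introns per direction by smallest p. Only some of these isoforms are described, and the exons of CDC16, NCAPD2 and RBL2 that it took are not. SGO1 exon 4 lies outside the rule and was named for the gap between its fold changes by the authors and by limma. The 9 genes and all lists were chosen with earlier results of these data known. Alternatives covered pseudocounts, minimum levels, stricter p, recentring, a replicate block and leaving out each library.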

Additional observations from a re-analysis of the deposited data

How the results depend on the processing

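All 6 INTS8+CCNE2 exons stayed lower in every limma alternative run, and past the adjusted threshold in 53 of 53 fits of single exons, with log2 fold changes from -3.48 to -1.11 and adjusted p from 0.000276 to 0.0351. A minimum mean of 50 normalized counts leaves out exon 36, with 5 of 5 past it. Listed exons past the threshold numbered 456, then 271 with that minimum, 297 after recentring on the median exon and 338 to 407 without each replicate in turn, where the lone library of a group is assumed to vary like the others. With the replicate number as a block 447 passed, all 6 CCNE2-locus exons among them; over the 474 exons the differences between replicates 1 and 2 of the 2 groups had a correlation of 0.0012, and the labels name no shared batch, so the numbers were not taken to pair the libraries. The planned edgeR test on reads recovered from the exon values was not run, because whole reads could not be established from those values.

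The median listed feature is itself a fall and, as features that changed little are not listed, does not mark the level of no change. Recentring on it kept past 2-fold 1 of the 7 lower genes (CCNE2), 2 of their 10 lower isoforms and 3 of their 18 introns. None (0) of the 11 further lower genes was kept. Recentring keeps every listed higher gene past 2-fold by construction, CCND1 and CDK6 included. It moved the log2 fold changes of the E2F1 and CDK1 genes to 0.073 and 0.0037, and those of E2F1 intron 6 to 0.22, TOP2A intron 4 to 0.00060, and NUSAP1 introns 4 and 7 to 0.13 and 0.020. At an adjusted p of 0.01, 11 of the 18 introns were left. Of the further genes' 52 lower isoforms, 29 were left at a mean of 5 FPKM, 27 with a pseudocount of 1 and 11 after recentring, and of their 25 higher ones 15 at 5 FPKM.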

Other observations

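Among the further cell cycle genes, 43 had listed isoforms, 52 lower and 25 higher, beside 53.3% lower and 46.7% higher over the whole isoform table. Of these 43 genes, with 77 listed isoforms, 7 had isoforms in both directions, beside 11.1% of 4948 genes with a symbol and a listed isoform. The difference was not tested, and the genes were not matched for their number of listed isoforms. For FOXM1, the transcription factor of G2/M genes, ENST00000361953 rose from 1.55 to 28.0 FPKM and ENST00000342628 fell from 12.2 to 5.80 FPKM per the authors' deposited table. Both listed isoforms of AURKA, which encodes the spindle pole kinase Aurora A, rose per the authors' deposited table. ENST00000371356 went from 2.20 to 12.5 FPKM and ENST00000395911 from 1.04 to 12.2 FPKM. A KIF23 isoform, of the midzone kinesin, rose from 0.309 to 6.73 FPKM per the authors' deposited table. Isoforms of the proliferation marker MKI67, of the cytokinesis exchange factor ECT2 and of the polymerase subunit POLA1 fell, from 33.7 to 13.6, from 79.9 to 30.5 and from 23.8 to 7.33 FPKM, per the authors' deposited table. These are values of single isoforms, with no spread, and do not give the level of a gene.

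In all, 8 exons of these genes were listed, 5 lower and 3 higher by limma, beside 65.6% lower and 96.2% past the threshold in either direction over all listed exons, so the count is close to that of the table. For the spindle checkpoint gene BUB3, exon 11 had 840 and 900 normalized counts without silencing and 286 and 264 with it (limma adjusted p = 0.00122). The 2 BUB3 isoforms moved in opposite directions, ENST00000407911 from 41.5 to 10.1 FPKM and ENST00000368859 from 23.0 to 56.6 FPKM, per the authors' deposited table. Exon 12 of BUB1B, another checkpoint gene, had 31.4 and 27.8 normalized counts without silencing and 88.6 and 79.8 with it (limma adjusted p = 0.00173). Exon 1 of the replication factor MCM10 was listed at 0 in both control libraries and had 9.55 and 7.42 normalized counts with silencing.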
